A study of Mus musculus with 8 samples.

Results

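The transcripts of 8 genes of the pharyngeal pouches and of the glands that form beside the thymus were followed in single-cell RNA-seq of mouse thymic epithelial cells (TEC). They were Gcm2, Pth and Casr for the parathyroid, Tbx1 for the pouch, and Hhex, Nkx2-1, Pax8 and Foxe1 for the thyroid. The genes were chosen by symbol from the 27514 genes counted in every library, and all 8 were found. The study asked how the transcriptional programs of fetal and adult TEC differ, and 8 of its libraries, in 6 groups, are analysed here. These were all wild-type C57 B6 (CD45.2) thymus, sorted as viable EpCAM+ CD45- cells.

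The E13.5 library held total TEC without a further gate. The E15.5, E17.5, newborn (NB) and adult cortical TEC (cTEC) libraries held Ly51+ UEA-1- cells, and the adult medullary TEC (mTEC) libraries held Ly51- UEA-1+ cells, UEA-1 being a lectin. There was 1 library of each group before the adult and 2 of each adult group, called replicate 1 and replicate 2. Stage and gate change together between E13.5 and the later libraries, so the effects of age and of the gate cannot be told apart. Of the libraries analysed here, E13.5, E15.5, NB and both adult replicates 1 belong to the first data set of the study, and E17.5 and both replicates 2 to the second, whose remaining libraries are not analysed here. Nothing in the sources says that the replicates came from separate mice, so the p-values given do not measure the spread between mice. In the trend over stage, with 1 library of each group before the adult, they measure the scatter of libraries about a straight line. In the adult comparison they rest on the spread left between the libraries after the data-set term.

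The thymus and the parathyroid gland arise from the same pouch pair of the embryonic pharynx. Gcm2 is the transcription factor that parathyroid fate depends on, Pth encodes parathyroid hormone, and Casr encodes the calcium-sensing receptor through which the gland reads blood calcium. Tbx1 is a T-box factor that patterns the pharyngeal pouches. The thyroid arises from the floor of the pharynx, and its precursors are known for expressing Hhex, Nkx2-1, Pax8 and Foxe1 together. In the adult, mTEC are known for low-level transcription of genes of other tissues, much of it dependent on the regulator Aire.

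On the mouse build GRCm38, all 8 genes are annotated as protein coding. Gcm2 lies at chr13:41101427-41111035, Pth at chr7:113385580-113388570, Casr at chr16:36493696-36562141, Tbx1 at chr16:18580979-18590671, Nkx2-1 at chr12:56531958-56536908 and Pax8 at chr2:24420560-24475599, all on the minus strand. Hhex lies at chr19:37434810-37440731 and Foxe1 at chr4:46343609-46346412 on the plus strand. Foxe1 shares 1907 bases with the antisense gene Gm12446 (chr4:46300007-46345515, minus strand), and Nkx2-1 shares 1566 bases with the antisense gene Gm26973. Whether the counting used strand is not given in the sources used here, so reads of Foxe1 or Nkx2-1 and of their antisense partners may not be separable.

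RefSeq promoter sequences (GRCm38.p6) were matched by symbol for 7 of the 8 genes, with 2 start sites for Tbx1. Pth and Hhex, the members with the most UMIs of their gland at E13.5, both carried the letters AATAAA, with their first base 30 bases before the start. The stretches from 45 to 16 bases before the start are shown for both, with those letters in capitals:
Pth (chr7:113388589-113388618, minus strand): gacatcatccttaacAATAAAatactcctc
Hhex (chr19:37434796-37434825, plus strand): ggagcgcagagcgcaAATAAAtgtagcgcg
The other 5 matched genes did not hold AATAAA on the strand of the gene within 50 bases of a start, and 1.87% of 32851 promoters did. These letters were chosen after the sequences had been seen. Letters of 3 factor motifs were also searched on both strands of the 250 bases before each start. They were TGCGGG for GCM factors (in 11.1% of all promoters), CTCAAG for NKX2-1 (13.3%) and GTAAACA for FOX factors (3.17%). Among the matched genes, the NKX2-1 letters were found before each of the starts of Tbx1 and no other match was found, which says only that these letters are not in these windows.

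The libraries held 507 to 8350 cells that passed the filters, with a median of 3996 to 11386 UMIs per cell and totals of 2257967 to 90103548 UMIs. Levels are given as CPM, UMIs per 1000000 UMIs of a library or of a set of cells, with exact 95% Poisson intervals. Shares of cells are given with exact (Clopper-Pearson) 95% intervals. Both intervals cover counting error only. The adult cTEC libraries held the fewest UMIs in total. In them a count of 0 allows a level of up to 1.34 CPM in replicate 1 and 0.743 CPM in replicate 2, where 3 counts set the limit.

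At E13.5 all 8 genes were detected, and for 5 of them this library was higher than every other by intervals that did not overlap. Pth stood at 2072 CPM (2049 to 2095). Hhex stood at 43.8 CPM (40.5 to 47.2), Nkx2-1 at 22.4 (20.1 to 25.0), Gcm2 at 10.2 (8.67 to 11.97) and Pax8 at 9.03 (7.58 to 10.7). Casr at 1.99 CPM, Tbx1 at 1.86 CPM and Foxe1 at 0.863 CPM were low in this library, and each had an interval that overlapped that of another library.

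**Figure D1:**
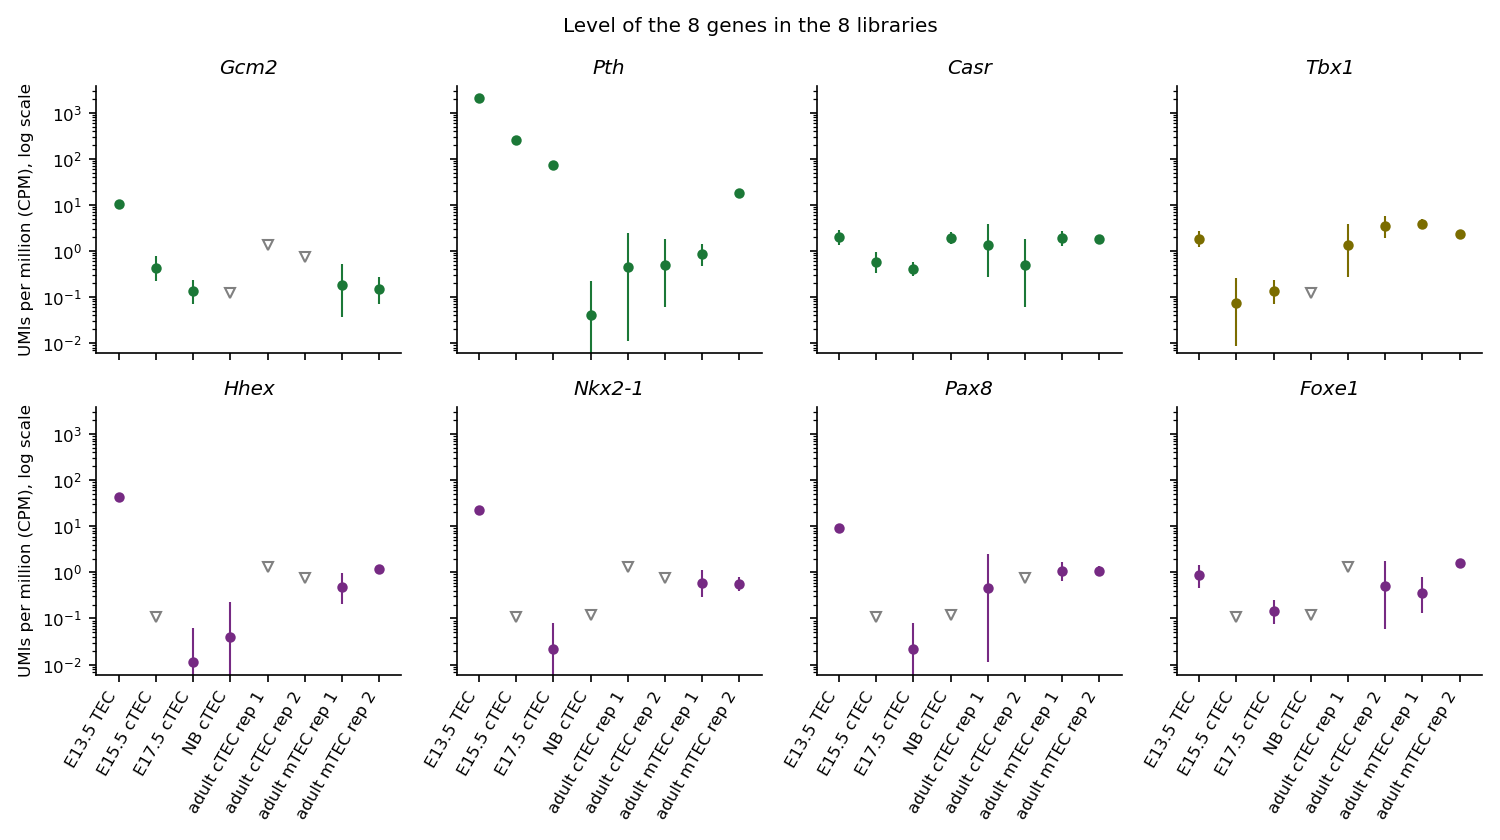
Level of each gene in the 8 libraries, in CPM on a log axis, with exact 95% Poisson intervals. Open triangles mark libraries with no UMI of the gene, drawn at the level that 3 counts would give. Pth fell from 2072 CPM at E13.5 to 0.0405 CPM in NB cTEC, and Hhex, Nkx2-1 and Pax8 were below 0.05 CPM or at 0 in E15.5, E17.5 and NB cTEC.

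Pth was next highest in E15.5 cTEC, with 258 CPM (252 to 264), and then in E17.5 cTEC, with 75.0 CPM (73.2 to 76.8). NB cTEC held 1 Pth UMI in 24679477 UMIs of the shared genes. The adult cTEC libraries held 1 and 2 Pth UMIs. Pth thus stepped down at each stage up to birth, with intervals that did not overlap.

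Gcm2 was at 0.436 CPM in E15.5 cTEC and at 0.133 CPM in E17.5 cTEC, 12 UMIs in each library. It was at 0 in NB cTEC and in both adult cTEC libraries. The intervals of E15.5, E17.5 and the adult mTEC libraries overlapped from one level to the next, so their order is not resolved.

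The thyroid transcription factors Hhex, Nkx2-1, Pax8 and Foxe1 were all at 0 in the 3571 cells of E15.5 cTEC. A count of 0 in that library allows up to 0.109 CPM of each. E17.5 cTEC held 1 UMI of Hhex, 2 of Nkx2-1, 2 of Pax8 and 13 of Foxe1. NB cTEC held a single UMI of Hhex and none of the others.

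Casr did not follow Pth and Gcm2 across the libraries. It was at 1.99 CPM at E13.5, 0.581 in E15.5, 0.411 in E17.5 and 1.94 (1.43 to 2.58) in NB cTEC, where the 48 UMIs lay in 47 cells while Gcm2 was at 0. The intervals of E13.5 (1.34 to 2.84) and NB cTEC lay above those of E15.5 (0.332 to 0.944) and E17.5 (0.289 to 0.567), while the wide intervals of adult cTEC overlapped both. Tbx1 was highest in adult mTEC replicate 1, at 3.91 CPM (3.02 to 4.98), with an interval that overlapped that of adult cTEC replicate 2 at 3.47 CPM. It was lowest in E15.5, E17.5 and NB cTEC, with 2, 12 and 0 UMIs.

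The slope of each gene over stage was fitted across all genes on summed counts of the 6 libraries of the cortical line (E13.5 TEC included), with stage as a rank from 1 to 5 and the data set as a term (edgeR quasi-likelihood test, Benjamini-Hochberg adjustment). In this fit 2.65% of 14473 genes fell and 4.56% rose at an adjusted p under 0.05. Of the 8 genes, 3 passed the filter on low counts. Pth fell by 4.30 ± 0.467 (SE) on the log2 scale per stage (adjusted p = 0.00830). Without adult cTEC replicate 1 the Pth slope was -4.54 with an adjusted p of 0.0956, so the call rests on that library. Casr had a slope of 0.05 (adjusted p = 0.924) and Tbx1 of -0.02 (adjusted p = 0.989). Gcm2, Hhex, Nkx2-1, Pax8 and Foxe1 were left out by the filter. With no filter on low counts, Gcm2 (slope -4.01, adjusted p = 0.00680) and Nkx2-1 (-9.47, adjusted p = 0.0183) passed, and Hhex (adjusted p = 0.0828), Pax8 (0.189) and Foxe1 (0.375) did not. Without adult cTEC replicate 1, where Gcm2 passed the filter, its slope was -4.18 with an adjusted p of 0.0798. The fitted sizes of genes at 0 in most libraries depend on the fit and are not bounds. In a summed library, fewer cells of a type and less RNA per cell cannot be told apart, and the counts per cell below bear on this.

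The E13.5 library held 2 separate sets of cells with these genes, one with the parathyroid genes and one with the thyroid factors. Of the 1981 cells, 109 (5.5%, 4.54 to 6.60) held a UMI of at least 2 of Gcm2, Pth and Casr. This share was 3.38% when each cell was thinned to 3000 UMIs. A further 66 (3.33%, 2.59 to 4.22) held at least 2 of Hhex, Nkx2-1, Pax8 and Foxe1. No cell was in both sets, which allows a share of up to 0.151% by the limit of 3 counts. In the first set a single Pth UMI counts, and such UMIs are described next. No doublet caller was run.

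Pth split the E13.5 cells without an overlap in counts. It was at 0 in 994 cells, at 1 to 5 UMIs in 866 cells and at 14 to 914 UMIs in 121 cells, with a median of 229 in the last. These 121 cells, 6.11% of the library (5.09 to 7.25), held 96.1% of all Pth UMIs and are called Pth-high cells. The limit of 10 UMIs was set after the counts had been seen, and no cell held 6 to 13. The Pth-high cells were shallower than the others, with a median of 4288 UMIs against 7230 in the 1794 cells that were neither Pth-high nor in the thyroid set. These 1794 cells are called the cells of neither set from here on, and 18 of them held Gcm2.

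**Figure D2:**
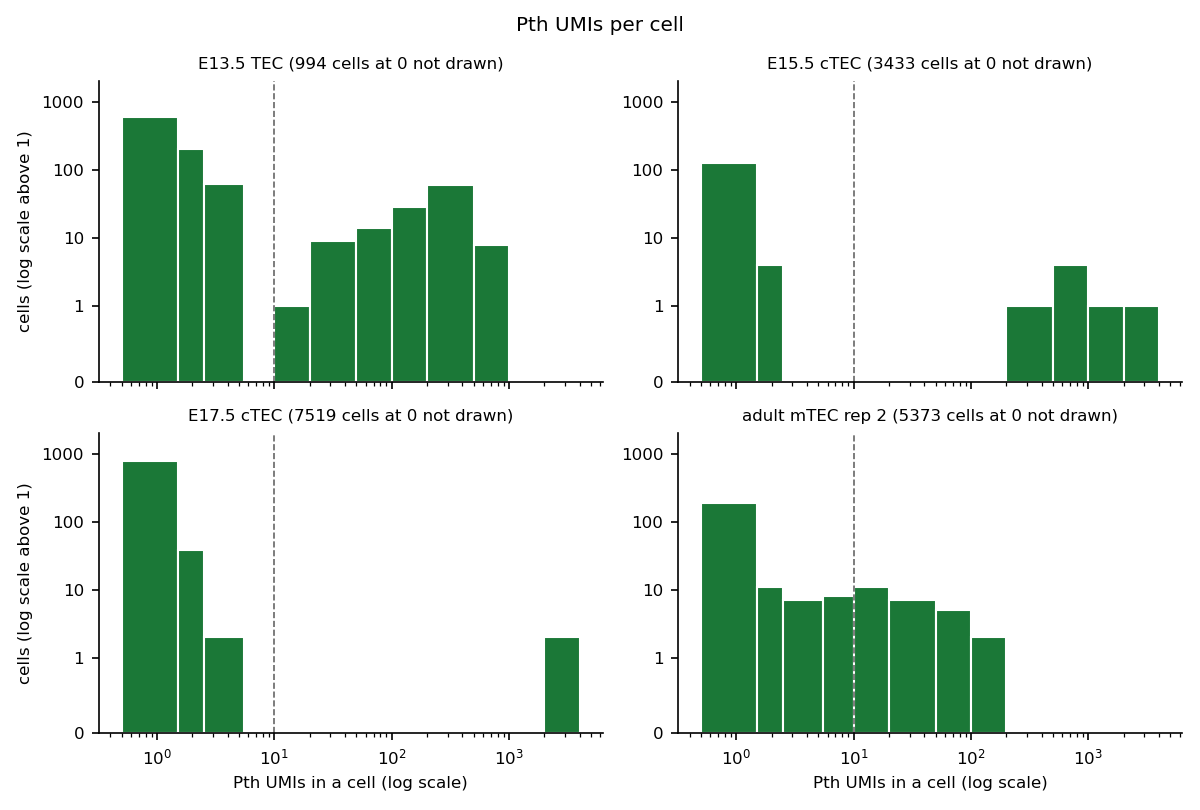
Cells by their number of Pth UMIs in 4 libraries, both axes logarithmic (the cell axis above 1), with cells at 0 left out and a dashed line at 10 UMIs. The embryonic libraries show an empty range between few UMIs and many, with 121, 7 and 2 cells on the high side, while the 25 cells at 10 or more in adult mTEC replicate 2 continue from the lower counts.

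The low Pth counts of the remaining E13.5 cells followed those of Chga. Chga, which encodes the secretory-granule protein chromogranin A, was at 23923 CPM in the Pth-high cells and at 49.1 CPM in the rest, where Pth was at 83.8 CPM against 52532 CPM. The rest thus held 0.160% of the Pth level and 0.205% of the Chga level of the Pth-high cells. There were 2.20 Pth UMIs per Chga UMI in the Pth-high cells and 1.71 in the rest. With each cell thinned to 3000 UMIs, a Pth UMI was found in 23.1% (20.1 to 26.4) of cells with a UMI of the cortical gene Psmb11, in 20.4% (17.9 to 23.0) of those without, and in 26.2% (16.03 to 38.5) of the cells with thyroid factors. Other genes higher in the Pth-high cells were also present in the cells of neither set. As examples, their level there was 0.107% (Ibsp), 0.644% (Gcm2), 2.37% (Gata3) and 4.39% (Tbx1) of that in the Pth-high cells. A single Pth UMI at E13.5 is therefore not taken as a sign of expression, and whether it came from free RNA or from low expression was not tested.

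Gcm2 was detected in 100 E13.5 cells, of which 82 were Pth-high cells. Chga was found in 88 of the 100, against 29.7% of cells without Gcm2, and Gata3, a transcription factor that acts with GCM2 in the parathyroid, in 85, against 13.7%. Any Pth UMI was found in 96, against 47.4%. In the Pth-high cells Gcm2 was at 233 CPM (195 to 276), against 1.5 CPM in the 1794 cells of neither set. Gcm2 was found in 2 of 726 thinned cells with Psmb11, 0.275%.

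Casr was sparse in the same cells. Its 30 UMIs lay in 26 cells, and 17 of these were Pth-high cells. It was at 36.8 CPM in the Pth-high cells, from 17 of 121 cells, against 0.643 CPM in the cells of neither set and 0 in the thyroid set. Gcm2 was found in 10 of the 26 Casr cells, against 4.6% of the other cells, and any Pth UMI in 23, against 49.3%.

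Tbx1 also leaned to the parathyroid set. Of its 25 cells, 12 were Pth-high cells and 19 held Chga, which is 76.0% (54.9 to 90.6) against 32.1% (29.99 to 34.2) of cells without Tbx1. Tbx1 was at 22.8 CPM in the Pth-high cells, 2.02 CPM in the thyroid set (1 UMI) and 1.0 CPM in the cells of neither set.

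**Figure D3:**
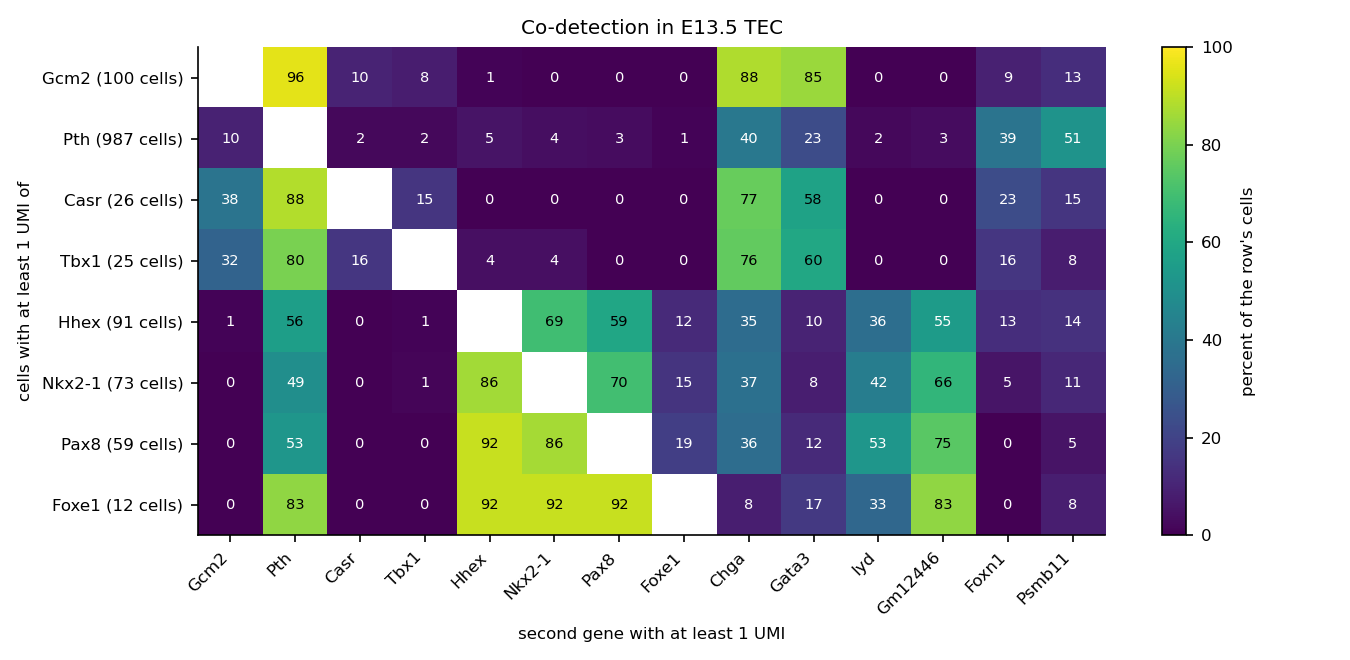
Percent of the E13.5 cells with a UMI of the gene in the row (number in brackets) that also held a UMI of the gene in the column. The rows are the 8 genes, and the columns add other genes of the gland sets and the thymic genes Foxn1 and Psmb11. The parathyroid genes and the thyroid factors form 2 blocks, and the Pth column runs from 49% to 96% over the rows of the other 7 genes.

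The thyroid factors were detected together in a small set of cells. Hhex was found in 91 cells, Nkx2-1 in 73, Pax8 in 59 and Foxe1 in 12. Of the 107 cells with any of them, 41 held 1 factor, 15 held 2, 40 held 3 and 11 held all 4. Hhex was in 63 of the 73 Nkx2-1 cells, 86.3% (76.2 to 93.2), against 1.47% of cells without Nkx2-1. It was in 54 of the 59 Pax8 cells, 91.5% (81.3 to 97.2). Foxe1 was the sparsest, and 11 of its 12 cells held each of the other 3 factors. Of the 107 cells, 1 also held Gcm2, Casr or high Pth.

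Within the cells with at least 2 factors, which the factors themselves chose, Hhex was at 1160 CPM, Nkx2-1 at 659, Pax8 at 265 and Foxe1 at 24.3. Gm12446, the antisense neighbour of Foxe1, was at 253 CPM in 50 of the 66 cells and at 0.357 CPM in the cells of neither set. It was found in 10 of the 12 Foxe1 cells. Levels are UMIs of transcript ends and are not set per length. The median depth of these cells was 6742 UMIs and that of the library 7035.

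Genes beyond the 8 were then compared between each set and the 1794 cells of neither set, by a 2-fold difference in CPM + 10 among genes with at least 10 UMIs in both together. There was 1 library, so no test was made. Of 13215 genes, 5.86% were higher and 4.68% were lower in the Pth-high cells. In the thyroid set, 3.24% of 13190 genes were higher and 4.76% lower. The cells were chosen by Pth or by the thyroid factors, so that those genes are no finding here.

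Of 8 other genes of the parathyroid, 6 had enough UMIs and 5 were higher in the Pth-high cells. Among these, Gata3 was at 776 CPM against 18.4 in the cells of neither set, the vitamin D receptor gene Vdr at 142 against 0.643, and Kl, the klotho gene, at 84.1 against 0.429. Pthlh, which was not higher, was at 1.75 CPM against 4.72, and Sox3 and Chgb were at 0.

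In the thyroid set, Iyd, which recovers iodide from iodotyrosines, was at 202 CPM in 33 of 66 cells, against 0.0714 CPM in the cells of neither set. The other thyroid hormone genes were low: Duoxa2 was found in 9 cells, the TSH receptor gene Tshr in 3 and Tg, which encodes thyroglobulin, in 1. Slc5a5, Slc26a4, Duox2 and Dio1 were at 0. Of the 9 genes, 2 had enough UMIs and 1 was higher.

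Of 7 genes of calcitonin-producing C cells 5 had enough UMIs, and 3 were higher in the thyroid set. Among these, Calca came from 4 and Foxa2 from 7 of the 66 cells. Isl1, which is on the same list, was in 34 of the 66 cells at 131 CPM, against 148 CPM in the cells of neither set. Calca was in 8 of 91 Hhex cells, 8.79% (3.87 to 16.6), and in none of the 59 Pax8 cells.

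Of 10 transcription factors of the third pouch and thymus, 7 of the 9 with enough UMIs were lower in the thyroid set and 3 were lower in the Pth-high cells. In the thyroid set Pax1 was at 8.09 CPM, against 235 CPM in the cells of neither set, and Hoxa3 was at 0. The Pth-high cells held Pax1 at 87.6 CPM and Pax9 at 322 against 155 CPM. Foxn1, the master regulator of TEC, was at 10.5 CPM in the Pth-high cells and 2.02 in the thyroid set, against 92.5 CPM.

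Markers of cortical TEC were lower in both sets, 6 of 6 in each. Their summed level was 377 CPM in the Pth-high cells, 340 CPM in the thyroid set and 2266 CPM in the cells of neither set. Among 11 medullary markers, the chemokine gene Ccl21a was at 9792 CPM in the Pth-high cells, against 20.2 CPM in the thyroid set and 174 CPM in the cells of neither set. Krt5 and Krt14 were lower in both. Epcam, the gene of the sort marker, was at 1377, 1009 and 819 CPM in the Pth-high cells, the thyroid set and the rest. Of the 6 epithelial markers, the keratin genes Krt8 (399 and 346 against 1836 CPM) and Krt18 (830 and 560 against 2633 CPM) were lower in both sets, and the claudin gene Cldn3 was higher in both.

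Markers of other cell types were low in both sets. The 7 mesenchymal markers summed to 8.76 CPM in the Pth-high cells and 2.02 CPM in the thyroid set, against 31.9 CPM in the cells of neither set. Dcn was at 0 in both and Lum had 1 UMI in the Pth-high cells and none in the thyroid set. All 4 myeloid markers were at 0 in both, and 5 of 6 thymocyte markers were at 0, Lck being the exception. Lung epithelium shares Nkx2-1 with the thyroid, and 4 of its 5 markers were at 0 in the thyroid set, Sftpb having 2 UMIs. The 5 endothelial markers summed to 19.3 CPM in the Pth-high cells and 10.1 CPM in the thyroid set, against 4.64 CPM in the cells of neither set, from 11 UMIs in the Pth-high cells and 5 in the thyroid set, and Cdh5 and Emcn were at 0. The 4 neural crest markers summed to 3.50 and 8.09 CPM against 4.50 CPM, and the 5 erythroid markers to 14.0 and 6.06 CPM against 15.1 CPM.

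**Figure D4:**
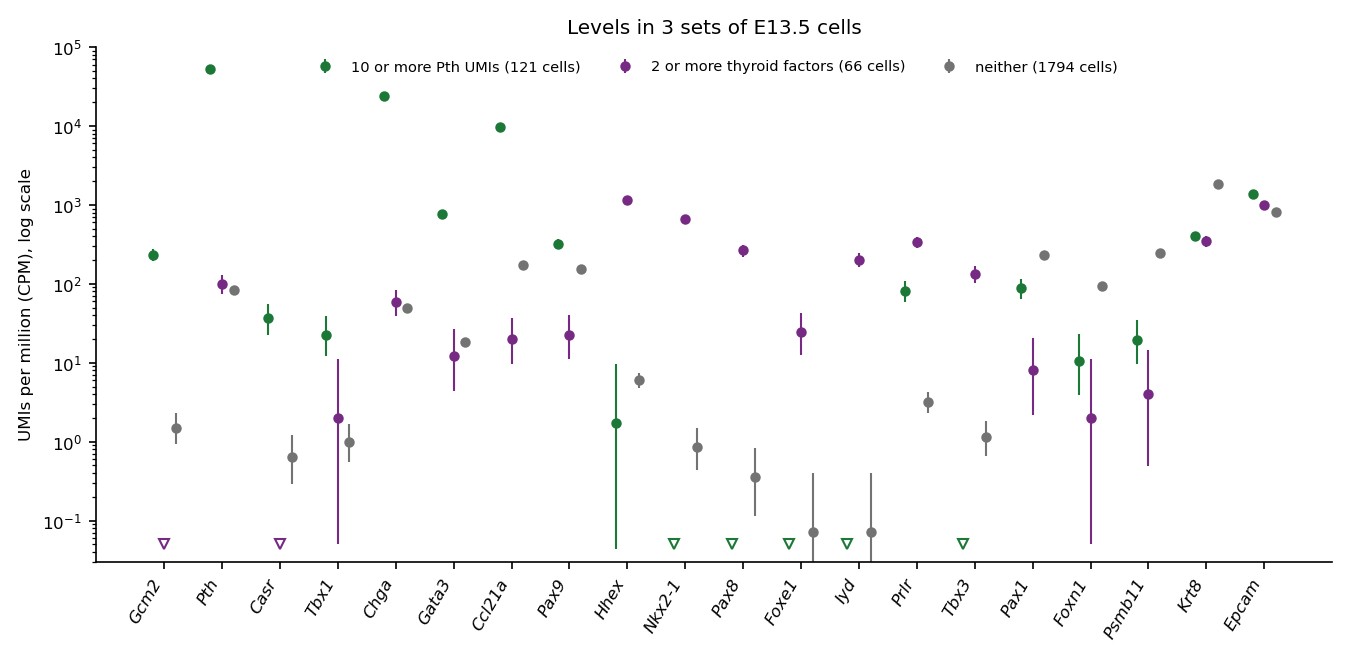
Levels of 20 genes in the 121 Pth-high cells, the 66 cells with at least 2 thyroid factors and the 1794 cells of neither set at E13.5, in CPM on a log axis with exact 95% Poisson intervals. Open triangles at the foot mark genes with no UMI in a set. Gcm2, Casr and Gata3 were highest in the Pth-high cells, Iyd, Prlr and Tbx3 in the thyroid set, and Foxn1 and Psmb11 in the rest.

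The genes most like each member over the 1981 cells were ranked by Pearson correlation of log-normalised values, as a description, since the cells share 1 library and its depth. Gcm2 was most like Chga (r = 0.72), Pth (0.71), Sparcl1 (0.70), Ibsp (0.70) and Gdpd1 (0.68). Pth was most like Chga (0.88), Sparcl1 (0.88), Ibsp (0.87), Pla2g7 (0.81) and Gdpd1 (0.81). Ibsp, known as bone sialoprotein, was at 2214 CPM in the Pth-high cells and 2.36 CPM in the cells of neither set. Hhex was most like Nkx2-1 (0.81), Pax8 (0.73), Gm12446 (0.66), the T-box gene Tbx3 (0.60) and Iyd (0.56). Nkx2-1 and Pax8 added the prolactin receptor gene Prlr (0.61 and 0.62), and Nkx2-1 added Sall1 (0.58). Casr was at 0.301 with Chga and at 0.299 with Pth, just under the limit of 0.3, and no gene reached 0.3 with Tbx1.

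In E15.5 cTEC the Pth-high state was held by 7 of 3571 cells, 0.196% (0.0788 to 0.403). Their Pth counts were 443, 791, 840, 852, 896, 1001 and 2140 UMIs, and the next highest cell of the library had 2. These cells held 98.1% of the Pth UMIs. All 12 Gcm2 UMIs of the library lay in 5 of them. All 7 held Gata3, at 2 to 16 UMIs, and Chga, at 103 to 309 UMIs.

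In E17.5 cTEC 2 of 8350 cells were Pth-high, with 2059 and 3822 Pth UMIs and with 3 and 5 of the 12 Gcm2 UMIs of that library. A further 829 cells held 1 to 3 Pth UMIs. Over all 8348 remaining cells the level of Pth was 0.00511% and that of Chga 0.00602% of the level in the Pth-high cells, with 4.44 Pth UMIs per Chga UMI against 5.24 in the Pth-high cells. The share of other cells with a Pth UMI was 9.93% at E17.5 and 3.68% at E15.5, and its source was not tested. Within the Pth-high cells, Pth was at 52532 CPM at E13.5, 140547 CPM at E15.5 and 189441 CPM at E17.5. With 1 library a stage and 7 and 2 cells at the later stages, this was not tested.

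No cell of E15.5 cTEC held UMIs of 2 thyroid factors, which allows a share of up to 0.0840% by the limit of 3 counts. This limit is on cells where 2 were detected, and a cell that expresses them can show fewer. In E17.5 cTEC 1 cell did. It held 2 UMIs of Nkx2-1, 1 of Pax8 and 3 of Foxe1, with 19 UMIs of Tg, 5 of Iyd and 4 of the cortical gene Psmb11. These were all of the Iyd UMIs of that library and 19 of its 35 Tg UMIs. Tg, which was found in 1 cell of the E13.5 thyroid set, was thus seen with Iyd in this cell, which had no Hhex.

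In adult mTEC all 8 genes were detected in both replicates, at low levels. Casr was at 1.86 CPM in replicate 1 and 1.81 in replicate 2, Pax8 at 1.08 and 1.07, Nkx2-1 at 0.601 and 0.564, and Gcm2 at 0.180 and 0.149. These 4 genes differed between the replicates by less than their counting intervals. Tbx1 was at 3.91 and 2.30 CPM, with intervals that did not overlap. Foxe1 was at 0.361 and 1.63 CPM, again without an overlap, and Hhex at 0.481 and 1.16 CPM with a small overlap.

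Of the 8 genes, Pth differed most between the adult mTEC replicates. Replicate 1 held 14 Pth UMIs, 0.841 CPM (0.460 to 1.41), and replicate 2 held 1229, 18.3 CPM (17.2 to 19.3), which is 21.7 times higher. A Pth UMI was found in 11 of 1586 cells of replicate 1, 0.694% (0.347 to 1.24), and in 242 of 5615 cells of replicate 2, 4.31% (3.79 to 4.87). The mean share was 2.5% ± 2.56 (SD, n = 2). The source of single UMIs was not tested here either, and the share of cells with 2 or more was 0.126% in replicate 1 and 0.908% in replicate 2. In replicate 2, 25 cells had 10 or more Pth UMIs and the highest had 104, while the highest cell of replicate 1 had 3. The data set differs between the replicates, and its part in this was not tested.

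**Figure D5:**
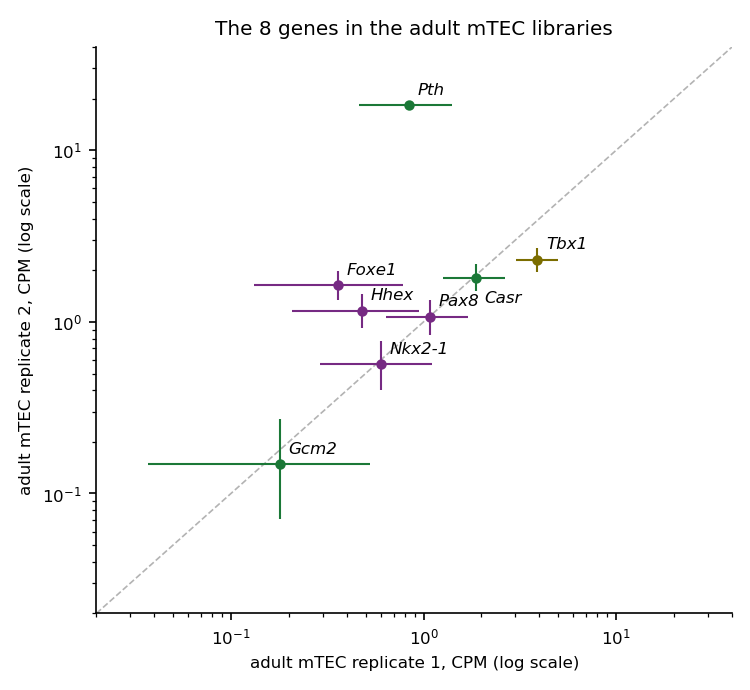
Levels of the 8 genes in adult mTEC replicate 1 against replicate 2, in CPM on log axes, with exact 95% Poisson intervals and a dashed line of equality. Gcm2, Casr, Nkx2-1 and Pax8 lie on the line within their intervals, and Pth lies 21.7 times above it.

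The cells of adult mTEC with 10 or more Pth UMIs did not carry the parathyroid genes of E13.5. None of the 25 held Gcm2 and 1 held Casr. Chga was at 39.4 CPM in them against 27.1 CPM in the remaining cells of that library. Aire was at 495 against 398 CPM and Ccl21a at 583 against 2905 CPM. Aire was found in 22 of the 25 cells, and most other cells of that library held it too. The 25 cells were deeper, with a median of 13219 UMIs against 11380. At E13.5 the Pth-high cells held no Aire and had Ccl21a at 9792 CPM.

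Co-detection of the thyroid factors was rare in adult mTEC. At least 2 were found in 1 of 1586 cells in replicate 1 and in 4 of 5615 in replicate 2, 0.0631% and 0.0712%. Hhex was in 1 of the 16 Nkx2-1 cells of replicate 2 and in none of its 33 Pax8 cells, and in replicate 1 in none of 5 and 1 of 9, whereas at E13.5 it was in 86.3% and 91.5% of them. None of the 32 Tg UMIs of replicate 1 lay in a cell with Hhex, Nkx2-1, Pax8 or Foxe1. In replicate 2, 2 of 199 Tg UMIs lay in Pax8 cells and none in cells with the other factors.

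The share of cells with Aire was higher among those with Pax8, Nkx2-1 or Tbx1 than among the other cells in both replicates, which was not tested. Aire was in 7 of 9 and 31 of 33 Pax8 cells, against 51.4% and 74.7% of cells without Pax8, in all 5 and 15 of 16 Nkx2-1 cells, and in 29 of 37 and 117 of 127 Tbx1 cells. The cells with these genes were also deeper. The median was 14851 UMIs against 9387 in replicate 1 and 16289 against 11276 in replicate 2 for Tbx1, 10257 against 9499 and 14489 against 11374.5 for Pax8, and 13279 against 9498 and 13076 against 11384 for Nkx2-1. As a level, Aire was at 549 and 515 CPM in the Tbx1 cells against 430 and 395 CPM in the others. It was at 608 and 658 CPM against 433 and 397 CPM for Pax8, and at 1319 and 509 CPM against 431 and 398 CPM for Nkx2-1. Casr differed between the replicates: Aire was found in 9 of 30 Casr cells in replicate 1, against 51.9% of the other cells, and in 92 of 113 in replicate 2, against 74.7%.

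Foxe1 was found with markers of tuft cells, the chemosensory mTEC subset. In replicate 2, Avil was in 32 of 72 Foxe1 cells, 44.4% against 7.43% of the others, Trpm5 in 29 and Pou2f3, the tuft-cell regulator, in 20. Their levels were 319, 150 and 42.4 CPM in the Foxe1 cells against 16.4, 6.0 and 6.12 CPM. In replicate 1, 1 of the 5 Foxe1 cells held each of them, so that replicate 1 adds little. The Foxe1 cells of replicate 2 were deeper, with a median of 13006 against 11378 UMIs, and the part of depth in their shares was not tested.

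Adult cTEC held 3 and 2 UMIs of Casr, 3 and 14 of Tbx1, 1 and 2 of Pth, 1 and 0 of Pax8 and 0 and 2 of Foxe1, and no Gcm2, Hhex or Nkx2-1. The replicates of this group held 507 and 535 cells. Both adult groups were compared over their 4 libraries, with the data set as a term (edgeR quasi-likelihood test, Benjamini-Hochberg adjustment), where 11.3% of 15650 genes were higher and 21.3% were lower in cTEC. Of the 8 genes, 3 passed the filter on low counts and none passed the test. The log2 differences were -1.23 ± 1.02 (SE, adjusted p = 0.388) for Casr, -0.33 ± 0.778 (adjusted p = 0.798) for Tbx1 and -2.74 ± 1.63 (adjusted p = 0.203) for Pax8. Pth was left out by the filter. It was lower in cTEC by -4.65 (adjusted p = 0.000105) when all deposited cells were summed and by -4.43 (adjusted p = 2.36e-05) with no filter. With no term for the data set, its difference was -4.32 (adjusted p = 0.325) and -4.66 (adjusted p = 0.354) with cTEC replicate 1 or 2 left out, and -5.41 (adjusted p = 4.21e-06) without mTEC replicate 1. The Pth counts of mTEC were high in replicate 2 alone.

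Other genes of these glands were lower in adult cTEC in the same fit. Of 9 thyroid hormone genes 5 were tested, and Iyd (-10.64, adjusted p = 1.65e-06), Tg (-3.93, adjusted p = 0.0219) and Dio1 (-4.00, adjusted p = 7.03e-11) were lower. Iyd was at 0 in both cTEC libraries, so its fitted size is no bound. Their median difference was -3.93, against -0.14 over all genes tested. Of 8 other parathyroid genes 6 were tested, and 3 were lower and 1 was higher. The lower ones were Chga (-3.41, adjusted p = 5.97e-07), Pthlh (-2.69, adjusted p = 3.49e-07) and Vdr (-2.23, adjusted p = 0.000217). In the trend over stage none of the 7 other parathyroid genes tested passed.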

How the data were processed

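The authors sorted TEC, made Chromium version 2 libraries and counted UMIs per gene and cell with Cell Ranger. The submitters' processing notes name Cell Ranger 2.0.1, STAR 2.5.1b and bcl2fastq 2.17 and the build mm10, while the matrix headers of the second data set name a later Cell Ranger version. The deposited matrices hold raw UMI counts, not normalized. The growth-protocol label speaks of bone marrow suspensions and the tissue label of thymus. Cells with over 5% mitochondrial UMIs or over 5000 genes were left out, which are limits the study also used. Here 25750 of 28334 deposited cells were kept. The study also removed clusters of contaminating cells, which was not done here, so the cells kept are not the same as in the study. Doublets were not called, and between 0 and 61 cell barcodes were shared by a pair of libraries.

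CPM used the 27514 genes in both gene lists. To compare shares at 1 depth, cells were thinned to 3000 UMIs (seed 1), which left out 58 of 1981 cells at E13.5. Sums of counts per library went into edgeR's quasi-likelihood test (version 4.0.16, R 4.3.3), after filterByExpr and with TMM factors. DESeq2 1.42.0, RLE factors, no filter, all deposited cells, no data-set term and omitted libraries were the alternatives. Standard errors were the log2 estimates over the square root of F. On simulated counts with 200 changed genes, the trend fit over 14473 genes recovered 196 changed by 1 per stage (3.92% of calls false), and the adult fit over 15650 genes recovered 183 changed by 2 (8.50% of calls false). The changed genes were drawn from well-expressed genes only, so these rates do not cover genes as low as most of the 8. The data set pairs the adult libraries, and the deviations of same-numbered libraries correlated at r = 0.27. The study's methods say that the second data set was captured together and do not say so of the first.

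The text names the 8 genes, the genes of fixed lists, and for each gene in at least 20 cells the 5 most correlated genes at r of 0.3 or more (E13.5) or 0.2 or more in both adult mTEC libraries. The genes and lists were chosen with earlier results of these data known. Some members of the lists are counted but not reported here by name.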

Additional observations from a re-analysis of the deposited data

How the results depend on the processing

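The count of genes past the threshold in the trend was 1044. It was 2855 with DESeq2, 379 in data set 1 alone, and 13 to 429 when an adult cTEC replicate was left out, 13 without replicate 1 and 429 without replicate 2. Without the replicate block (no term for the data set) it was 1263, with 893 shared, and the Pth slope was -3.14. The count for adult cTEC against adult mTEC was 5110. It was 2591 with DESeq2, 4257 without the block, and, with no term for the data set, 2922 and 2217 without cTEC replicate 1 or 2 and 2687 and 2051 without mTEC replicate 1 or 2, a fit chosen after seeing the data since that term leaves no residual degrees of freedom. There the lone library of a group is assumed to vary like the other group. The cause of these differences was not tested.

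The E13.5 share of cells with at least 2 parathyroid genes fell to 3.38% when cells were thinned to 3000 UMIs. It was 5.05% by Gcm2 alone and 6.11% by 10 or more Pth UMIs, a limit chosen after seeing the data. The thyroid share was 2.91% when thinned. The share of adult mTEC with a Pth UMI ranged from 0.694% to 4.31% between the replicates and was 0.948% when thinned (0.0634% and 1.83%).

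The Casr slope turned from 0.05 to -0.065 without the block. The Tbx1 slope turned from -0.02 to 0.24 without the block, 0.038 with DESeq2 and 1.70 without E13.5 TEC, and its adult difference to 0.19 without adult cTEC replicate 1. None of these passed the test. With adult cTEC replicate 1 or 2 left out and no term for the data set, the adult difference of Pax8 was -7.96 and -1.46. That of Casr was -1.88 and -0.66 in these fits. The Pth slope was negative in the trend fits run, at -4.99 without E13.5 TEC, and lost its call without adult cTEC replicate 1 (-4.54, adjusted p = 0.0956). The adult cTEC libraries are limited most by their few cells and few UMIs in total.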

Other observations

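In adult mTEC, 3 genes that were picked after the values of both replicates had been seen were at higher levels in Tbx1 cells, which supports nothing by itself. Dynlrb2, a dynein light chain gene, was at 167 CPM in the 37 Tbx1 cells of replicate 1 against 3.61 CPM in the other cells, and at 80.9 against 6.09 CPM in replicate 2. Ccno, which multiciliated cells need to multiply their centrioles, was at 95.0 against 6.35 CPM and at 48.7 against 9.08 CPM. The spermatogenesis and cilium gene Meig1 was at 96.8 against 3.98 CPM and at 70.0 against 8.92 CPM. These UMIs came from few cells: Dynlrb2 was in 2 of 37 and 11 of 127 Tbx1 cells, and Ccno in 3 and 12.

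At E13.5 Spp1, which encodes osteopontin, was at 1152 CPM in the Pth-high cells and was found in 49 of them, against 2.5 CPM in the cells of neither set. This gene was chosen after its values had been seen.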
